A study of Mus musculus with 8 samples.

Results

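The genes of DNA replication and S phase were followed in cultured mouse oligodendrocyte progenitors, which divide and can later form myelin, after their glucose supply was lowered. The 52 genes were listed by symbol, all 52 matched 1 Ensembl gene ID each among the 56980 IDs of the deposited table, and all 52 were among the 18905 genes tested. Low glucose (LG) cultures were weaned in daily steps, with 12.5 mM glucose on day 1, then 5 mM (day 2) and 2.5 mM (day 3), while high glucose (HG) cultures stayed at 25 mM. Both groups were harvested on day 5 as 4 libraries each. All cells were wild type C57BL/6, immunopanned for PDGFRα from the cortex of pups of either sex aged postnatal day 6-8, after lectin-coated dishes had taken up microglia and endothelial cells. They were expanded with PDGF-AA and bFGF, and all cultures of both groups then kept 10 ng/mL PDGF-AA, a mitogen, without bFGF.

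Replication of DNA begins with licensing, when the origin recognition complex, Cdc6 and Cdt1 load the Mcm2 to Mcm7 helicase rings onto origins. At the start of S phase Cdc45 and GINS join the ring to form the active helicase, polymerases extend primed DNA behind it with the sliding clamp PCNA, and other proteins supply nucleotides, guard the fork and rebuild chromatin. Many of these genes are transcribed in bulk by E2F factors at the passage from G1 to S phase. In bulk RNA, fewer cells in S phase and less RNA per cell in S phase cannot be told apart. Oligodendrocyte progenitors can divide in culture when PDGF is present.

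Promoter sequence is shown for 4 of the 5 genes that fell in the test paired by replicate number, and for Mcm6, which had the most E2F matches of any member. The bases come from RefSeq on GRCm38.p6, run 5′ to 3′ toward the start site on the gene's strand, and leave out bases that GENCODE M21 places in an exon. Capitals mark the E2F letters TTTCGCGC or TTTGGCGC and the CCAAT box, each on either strand.
Clspn, chr4:126556730-126556934 on the + strand: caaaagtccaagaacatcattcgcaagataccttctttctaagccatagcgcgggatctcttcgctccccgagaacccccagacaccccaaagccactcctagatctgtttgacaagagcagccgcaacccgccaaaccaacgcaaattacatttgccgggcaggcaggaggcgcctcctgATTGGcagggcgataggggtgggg
Dtl, chr1:191575545-191575635 on the - strand: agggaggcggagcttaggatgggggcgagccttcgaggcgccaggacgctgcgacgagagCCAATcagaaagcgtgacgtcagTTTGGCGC
Pola1, chrX:93632156-93632405 on the - strand: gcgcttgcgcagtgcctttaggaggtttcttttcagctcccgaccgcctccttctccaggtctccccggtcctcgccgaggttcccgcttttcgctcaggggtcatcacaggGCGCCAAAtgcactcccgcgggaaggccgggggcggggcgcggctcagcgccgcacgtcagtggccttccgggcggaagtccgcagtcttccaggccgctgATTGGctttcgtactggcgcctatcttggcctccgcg
Rfc1, chr5:65335671-65335889 on the - strand: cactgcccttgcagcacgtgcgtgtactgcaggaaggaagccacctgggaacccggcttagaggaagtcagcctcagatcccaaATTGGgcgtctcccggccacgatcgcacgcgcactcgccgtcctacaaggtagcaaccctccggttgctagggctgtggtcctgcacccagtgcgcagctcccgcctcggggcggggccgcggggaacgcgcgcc
Mcm6, chr1:128359706-128359955 on the - strand: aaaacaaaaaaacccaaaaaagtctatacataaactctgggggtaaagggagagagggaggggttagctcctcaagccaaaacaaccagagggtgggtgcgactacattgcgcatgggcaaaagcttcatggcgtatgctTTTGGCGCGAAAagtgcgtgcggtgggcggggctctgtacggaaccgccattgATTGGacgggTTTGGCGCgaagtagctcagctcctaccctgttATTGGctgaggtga
The E2F match of Dtl began 8 bases before its start site and that of Pola1 138 bases before it. Mcm6 held 3 matches, at 110, 106 and 47 bases before the start, the first pair overlapping each other. Neither E2F spelling occurred in the 250 bases before the RefSeq start of Clspn, Rfc1 or Cdc6. The Cdc6 window lies inside the gene as GENCODE M21 places it, so its sequence is not shown. Bases before the GENCODE start of Cdc6 were not searched as such. Among 42 members with a listed promoter, 7 held an E2F match in those 250 bases (16.7%), against 1.36% of 11653 tested genes with a promoter and 0.759% of all 27018 genes listed. The CCAAT box was found in 26 of the 42 (61.9%), against 40.4% of the tested genes and 37.5% of all genes. The CHR element, spelled TTTGAA or TTCGAA on either strand and known from G2/M genes, was in 7 of 42 (16.7%), against 14.8% of the tested genes and 19.5% of all genes. The median log2 fold change, LG over HG in the paired fit, was -0.23 for the 7 members with an E2F match and -0.21 for the 35 without one. These are letter matches in a short window, not bound sites.

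Each library had between 53869166 and 65733928 counts in LG and between 50864130 and 61915909 in HG, which differed by less than the spread between libraries (two-sided exact permutation test over 70 assignments, p = 0.543). The descriptions give numbers 1 and 2 of both groups the same code, without saying what it stands for. It is read here as a preparation code. The protocol speaks of independent preparations, so on that reading the 4 libraries of a group may come from 3. In a principal component analysis, component 1 (47.1% of the variance) separated numbers 1 and 2 from 3 and 4, in both groups alike. The 6 progenitor markers, led by Ptprz1, summed to 7799 to 9390 CPM (counts scaled to the library's effective size) in LG and 7696 to 10121 CPM in HG. The 6 astrocyte markers, led by Slc1a3, summed to 1356, 1193, 494 and 411 CPM in LG libraries 1 to 4 and 1218, 1212, 468 and 485 CPM in HG libraries 1 to 4. The 5 mature oligodendrocyte markers, led by Mbp, summed to 155, 151, 55.7 and 59.3 CPM in LG libraries 1 to 4 and 191, 176, 43.5 and 58.3 CPM in HG libraries 1 to 4. The 5 neuron markers lay between 53.9 and 71.6 CPM in LG and between 49.7 and 72.1 CPM in HG. The 5 microglial markers summed to at most 0.338 CPM in LG and 0.542 CPM in HG, with Cx3cr1 at 0 in all 8 libraries. The 5 endothelial markers summed to at most 0.322 CPM in LG and 0.407 CPM in HG, with Cldn5 and Cdh5 at 0. The 6 mural and fibroblast markers summed to 6.03, 5.67, 0.488 and 0.517 CPM in LG libraries 1 to 4 and 3.55, 5.05, 0.673 and 0.832 CPM in HG libraries 1 to 4.

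The median log2 fold change of the members, LG over HG, was below 0 at every step. Together the 52 genes held 3762, 3378, 2954 and 2850 CPM in LG libraries 1 to 4, against 4049, 3945, 3327 and 3470 CPM in HG libraries 1 to 4. The LG library was below the HG library of its own number each time, at 92.9%, 85.6%, 88.8% and 82.1% of it, but the groups overlapped, since LG library 1 stood above HG libraries 3 and 4 and LG library 2 above HG library 3. Numbers 1 and 2 were above numbers 3 and 4 by a median of 0.31 log2 units in LG and 0.27 in HG. Libraries 1 and 2 were both above libraries 3 and 4 for 43 of 52 members in LG and 40 in HG, where 22.4% and 25.8% of all tested genes did so. The summed markers of 3 other cell types were also higher in libraries 1 and 2 than in 3 and 4 of both groups: astrocytes, mature oligodendrocytes, and mural cells and fibroblasts. Those of progenitors and of neurons were lower in libraries 1 and 2 than in 3 and 4 of both groups. The part of these cell types in the members' difference was not tested.

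Without pairing, no member passed edgeR's quasi-likelihood test after adjustment over all genes, where 0% of the 18905 genes were called lower. DESeq2 and limma-voom in the same design also called 0 members, and 12 of 52 members had an unadjusted p under 0.05, against 3.94% of all tested genes. The log2 fold change was below 0 for 51 of 52 members, against 48.6% of tested genes, with a median of -0.22 against 0.0051. With the replicate number as a block, 5 members fell, 0 rose, and 0.307% of all tested genes were called lower and 0.111% higher. In that fit 52 of 52 members had a log2 fold change below 0 (49.6% of tested genes), with the same median of -0.22, and 34 had an unadjusted p under 0.05 (13.4% of tested genes). Adding offsets for the GC content and length of each gene to the block gave 20 members that fell and 0 that rose, where 1.05% of tested genes were called lower, 0.254% higher and 51.6% had a log2 fold change below 0, as did 50 of 52 members. There 40 members had an unadjusted p under 0.05, against 13.2% of tested genes. DESeq2 with the block called 18 members lower (1.61% of tested genes) and 0 higher (0.894%). They were Cdc6, Cdt1, Gmnn, Mcm3, Mcm4, Mcm6, Mcm10, Gins3, Pola1, Prim1, Rfc1, Rrm2, Clspn, Dtl, Wdhd1, Chaf1a, Uhrf1 and Slbp. In the DESeq2 fit 51 of 52 members and 48.4% of tested genes had a value below 0. Orc1 and Fen1 had no adjusted p in that fit and could not be called. Its shares of tested genes called count genes without an adjusted p as not called. In the paragraphs on each step, passing refers to the edgeR fits. With the preparation code in place of the replicate number as the block, no member passed in edgeR, and 0.00529% of tested genes were called lower and 0% higher. All 52 members had a log2 fold change below 0 there (49.6% of tested genes), and 31 had an unadjusted p under 0.05 (9.94%). The edgeR adjusted p in that fit was 0.117 for Clspn, 0.130 for Pola1, 0.145 for Dtl, 0.158 for Cdc6 and 0.518 for Rfc1, so none of the 5 calls held there. With the 2 libraries of the shared code summed in each group, and the code as block, 1 member passed, Clspn (edgeR adjusted p = 0.0411). In that fit 0.0741% of tested genes were called lower and 0.0159% higher. There 51 of 52 members had a value below 0, against 48.2% of tested genes. In the blocked fit without number 1 or without number 2 no member passed, without number 3 it was 2 (Pola1 and Clspn), and without number 4 it was 6 (Mcm4, Pola1, Rfc1, Clspn, Dtl and Wdhd1). Those 4 fits called between 3 and 152 of all 18905 tested genes, in both directions together. The member counts describe a list chosen with earlier results of these data known.

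**Figure D1:**
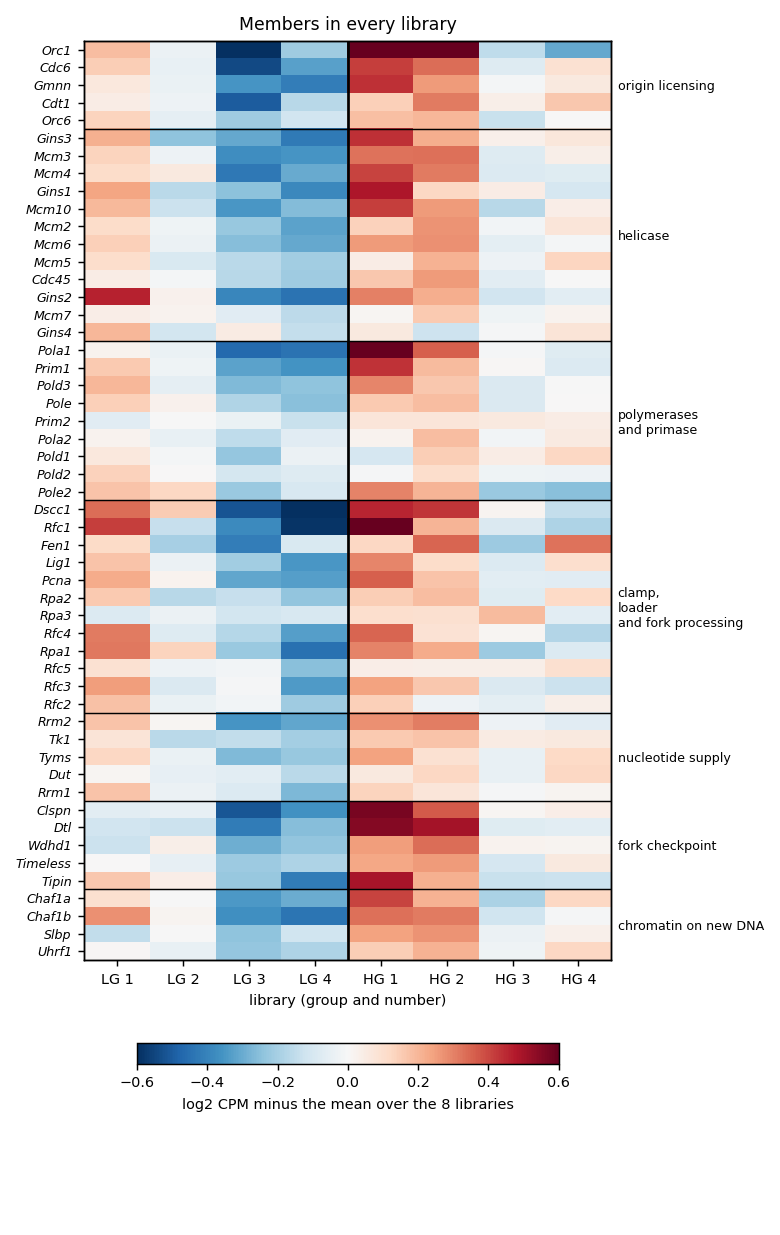
Level of each of the 52 genes (rows, grouped by step) in each library (columns), as log2 CPM minus the mean of that gene over the 8 libraries; the color scale ends at 0.6 in each direction. LG libraries 3 and 4 carry the lowest level of 23 and 28 genes, and HG libraries 1 and 2 the highest of 22 and 21.

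Pair by pair, 38 of 52 members were lower in LG in all 4 pairs (11% of tested genes) and 0 were higher in all 4 (10.8%). The median difference of the members, LG minus HG in log2 CPM, was -0.12 in pair 1, -0.25 in pair 2, -0.20 in pair 3 and -0.28 in pair 4. Over all tested genes these medians lay between -0.0089 and 0.0063. Pair 1 had 40 of 52 members lower, and the other pairs 51, 49 and 50. In 3 members, Clspn, Dtl and Prim2, every LG library was below every HG library (1.82% of tested genes), and in 0 every LG library was above (1.07%). Among numbers 1 and 2, which share a code, both LG libraries were below both HG libraries for 33 of 52 members, against 18.6% of tested genes.

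**Figure D2:**
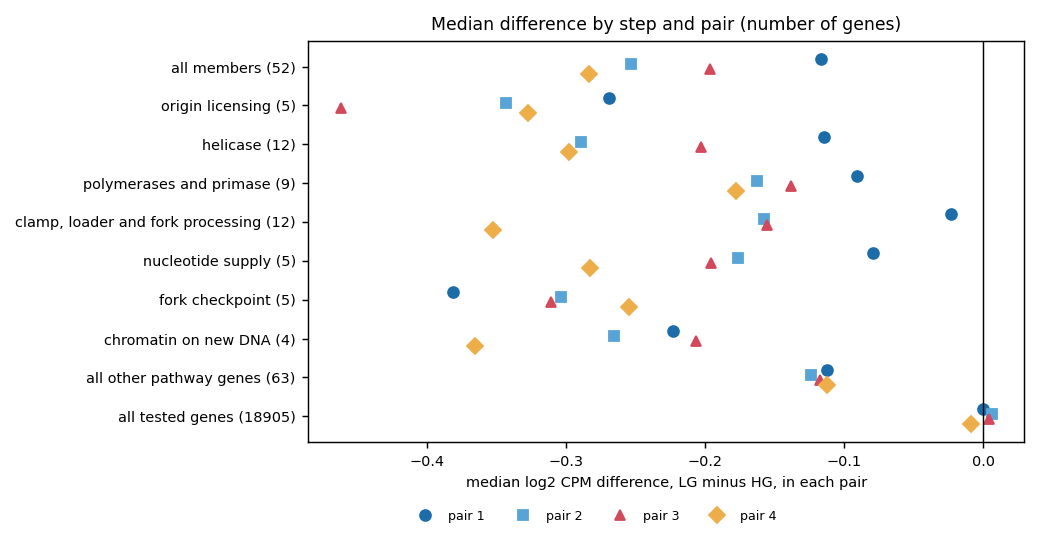
Median difference in log2 CPM, LG minus HG, for all members, for each step, for the other replication genes and for all tested genes, with 1 point per pair and the number of genes in brackets. The members' medians run from -0.28 in pair 4 to -0.12 in pair 1, while those of all tested genes stay within 0.01 of 0.

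The 5 fork checkpoint genes summed to 188.9 ± 21.6 CPM in LG and 240.8 ± 39.7 CPM in HG (SD, n = 4 each), with LG at 73.3%, 78.0%, 82.3% and 82.2% of the HG library of the same number. All 5 were lower in all 4 pairs, their median log2 fold change in the paired fit was -0.31, and 2 of the 5 fell. Clspn encodes Claspin, the adaptor through which the kinase ATR activates CHK1 at stalled forks, and lies on GRCm38 chromosome 4 at 126556935 to 126593903. It had 45.8, 46.1, 33.5 and 37.2 CPM in LG libraries 1 to 4, against 71.0, 61.6, 48.2 and 49.2 CPM in HG libraries 1 to 4. Every HG library was above every LG library, and the high values were HG 1 and HG 2. Clspn averaged 40.7 ± 6.33 CPM in LG and 57.5 ± 10.9 CPM in HG (SD, n = 4 each) and fell by 0.50 on the log2 scale (SE 0.063, edgeR with block, adjusted p = 0.0260). It passed with the offsets (adjusted p = 0.00266, edgeR), and did not pass with the preparation as the block (adjusted p = 0.117, edgeR).

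Dtl, on chromosome 1 at 191537356 to 191575544, encodes the adaptor of a ubiquitin ligase that destroys Cdt1 once S phase has begun. Its levels were 31.4, 31.1, 25.4 and 28.4 CPM in LG libraries 1 to 4, against 49.8, 48.0, 32.3 and 32.5 CPM in HG libraries 1 to 4. The groups did not overlap, but HG 3 was close above LG 1 and LG 2, and the pair differences were larger in numbers 1 and 2 than in 3 and 4. Dtl fell by 0.46 (SE 0.084, edgeR with block, adjusted p = 0.0498), just inside the threshold, and by 0.35 with the offsets (adjusted p = 0.0343, edgeR). Tipin, which pairs with Timeless to hold the polymerase and helicase together at the fork, was at 45.2, 41.5, 34.5 and 30.1 CPM in LG and 57.0, 46.8, 36.8 and 36.9 CPM in HG, in the order of the numbers. Its groups overlapped, and it did not pass, at -0.22 (SE 0.065). Timeless stood at -0.22 and Wdhd1, which couples polymerase α to the helicase, at -0.31, and these 2 did not pass with the block and passed once the offsets were added.

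**Figure D3:**
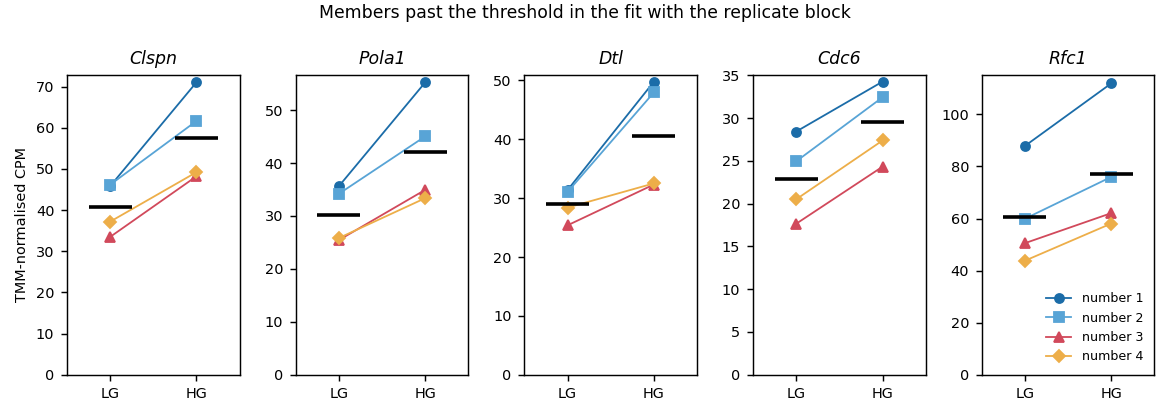
TMM-normalised CPM of Clspn, Pola1, Dtl, Cdc6 and Rfc1 in LG (left) and HG (right), with lines joining libraries of the same number and black bars for the group means. Every LG point lies below the HG point of its number, and numbers 1 and 2 lie above numbers 3 and 4 within each group.

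Origin licensing genes held 117, 106, 83.1 and 93.3 CPM in LG libraries 1 to 4, against 133, 132, 104 and 113 CPM in HG. Their median log2 fold change was -0.37 with the block, and 1 of the 5 fell. Cdc6, the ATPase that helps load the helicase, lies on chromosome 11 at 98907801 to 98923940. It was measured at 28.4, 25.0, 17.7 and 20.5 CPM in LG libraries 1 to 4, against 34.3, 32.4, 24.3 and 27.4 CPM in HG. LG 1 was above HG 3 and HG 4, so the groups overlapped, although each LG library was below its own HG partner. The fall was 0.38 on the log2 scale (SE 0.067, edgeR with block, adjusted p = 0.0465).

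Cdt1, the partner of Cdc6 in loading, and Gmnn, whose product Geminin blocks Cdt1 outside G1, were at -0.33 and -0.37 in the blocked fit. Neither passed there, and both passed with the offsets (edgeR adjusted p = 0.00902 and 0.0222). Orc1, the origin recognition subunit that is broken down during S phase in mammalian cells, had 3.96, 3.40, 1.93 and 3.01 CPM in LG and 5.80, 5.47, 3.14 and 2.82 CPM in HG. In pair 4 LG was above HG, by 0.095 log2 units, and Orc1 did not pass at -0.46 (SE 0.15) on a level of at least 103 counts per library. Orc6, a further subunit, was the most abundant licensing gene per length, at 15.9 CPM per kb of exon. It was at 42.8, 37.7, 33.7 and 36.0 CPM in LG, against 44.3, 44.8, 35.5 and 39.1 CPM in HG, and did not pass at -0.12 (SE 0.063).

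The median log2 fold change of the helicase genes was -0.23 with the block. None of the 12 passed in the blocked fit, and 5 did once the offsets were added: Mcm2, Mcm3, Mcm4, Mcm10 and Gins3. The 6 subunits of the Mcm2 to Mcm7 ring, which assemble in equal number, spanned 21.7 CPM per kb for Mcm2 to 46.4 CPM per kb for Mcm7. Their log2 fold changes with the block ran from -0.31 (SE 0.058) for Mcm3 to -0.081 (SE 0.059) for Mcm7. Mcm7 was at 211, 208, 196 and 184 CPM in LG libraries 1 to 4, against 207, 228, 201 and 208 CPM in HG, with LG 1 above HG 1. A pseudogene 97.7% identical to Mcm7 over 2157 bases held 3.27% as many counts as the gene. Reads could be split between them, so the Mcm7 counts are uncertain.

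GINS, the 4-subunit complex that completes the helicase, held both the lowest and the highest log2 fold change of the 12. Gins3 was at 12.7, 9.26, 8.86 and 8.18 CPM in LG, against 14.9, 12.8, 11.2 and 11.5 CPM in HG, lower in 4 of 4 pairs. Gins4 was at 41.0, 33.0, 36.9 and 32.3 CPM in LG, against 37.2, 32.8, 35.5 and 37.6 CPM in HG, higher in 3 of 4 pairs. Neither passed with the block, where Gins3 was at -0.38 (SE 0.084, edgeR adjusted p = 0.0832) and Gins4 at -0.0030 (SE 0.072). Gins1 stood at -0.28 and Gins2 at -0.17, and 67.3% of the Gins2 exon bases overlap a gene on the opposite strand, so its counts are uncertain. Mcm10, which helps start the helicase, and Cdc45, the third part of it, were at -0.27 and -0.17.

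The 9 polymerase and primase genes had the smallest median with the block, -0.12, and 1 of them fell. With the offsets added their median was -0.18, and that of the clamp, loader and fork processing genes was smaller in size, at -0.14. Pola1, on chromosome X at 93304767 to 93632155, encodes the catalytic subunit of polymerase α, which extends the RNA primers. It had 35.6, 34.2, 25.4 and 25.8 CPM in LG libraries 1 to 4, against 55.2, 45, 34.9 and 33.4 CPM in HG. HG 1 was the highest library and each LG library was below its partner, while LG 1 was above HG 3 and HG 4. Pola1 fell by 0.46 (SE 0.067, edgeR with block, adjusted p = 0.0346), and by 0.37 with the offsets.

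Its partner Pola2 was at -0.12 and the primase genes Prim1 and Prim2 at -0.27 and -0.12, none of them past the threshold with or without the offsets. The leading and lagging strand polymerases ε and δ did not pass with the block. Pole2 was at 7.17, 6.92, 5.44 and 5.95 CPM in LG, against 7.80, 7.31, 5.45 and 5.35 CPM in HG, and its log2 fold change of -0.014 (SE 0.099) was 0.033 with the offsets. Pold2, the most abundant of the 9 per length at 22.6 CPM per kb, was at 47.1, 42.9, 39.8 and 40.6 CPM in LG, against 42.6, 46.2, 42.2 and 42.0 CPM in HG. LG 1 was its highest library and the difference of -0.023 (SE 0.065) was within the error. Pold1 passed as lower with the offsets added to the block (edgeR adjusted p = 0.0475), where its log2 fold change was -0.23 against -0.11 without them.

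**Figure D4:**
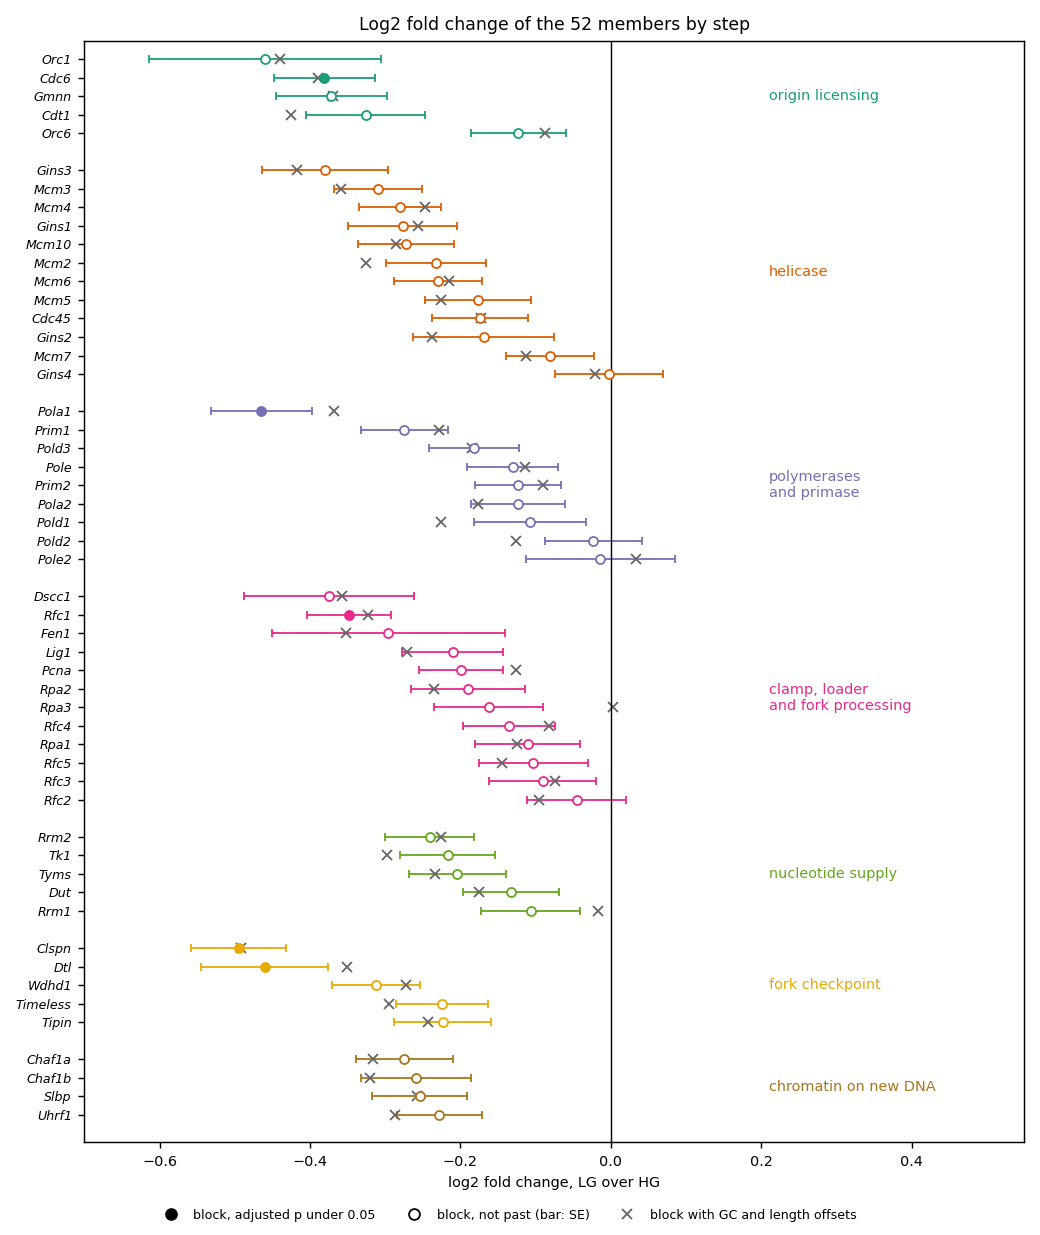
Log2 fold change, LG over HG, of each member in the edgeR fit with the replicate block (circles, bars for the SE, filled where the adjusted p is under 0.05) and with GC and length offsets added (crosses), by step. The 5 filled circles lie between -0.50 and -0.35, and Gins4, Pole2 and Pold2 lie within 0.03 of 0 in the fit with the block.

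Of the 12 genes of the clamp, its loader and fork processing, 1 fell and the median was -0.18 with the block. Rfc1, on chromosome 5 at 65261850 to 65335670, encodes the large subunit of replication factor C, which opens the PCNA ring and places it on DNA. Its levels were 87.9, 59.9, 50.5 and 43.8 CPM in LG libraries 1 to 4, against 112, 76.0, 62.1 and 58.1 CPM in HG. Number 1 was the highest in each group and the groups overlapped, while the pair differences ran from -0.41 to -0.30 log2 units. Rfc1 fell by 0.35 (SE 0.056, edgeR with block, adjusted p = 0.0353). In fits without the block its value ran from -0.58 without LG replicate 1 to -0.11 without HG replicate 1.

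The small subunits Rfc2 to Rfc5 ranged from -0.14 to -0.045 and did not pass in the fit with the block or with the offsets added. Rfc2 was at 74.1, 63.9, 64.9 and 56.5 CPM in LG, against 72.4, 64.1, 63.0 and 67.2 CPM in HG, higher in LG in pairs 1 and 3. Dscc1, part of an alternative loader, had a low level of 7.15, 6.31, 3.96 and 3.41 CPM in LG, against 7.79, 7.64, 5.73 and 5.14 CPM in HG, and did not pass at -0.37 (SE 0.11). Pcna, the clamp itself and the most abundant member per length at 72.5 CPM per kb, was at 201, 175, 138 and 137 CPM in LG, against 220, 193, 165 and 164 CPM in HG. Lower in 4 of 4 pairs, Pcna did not pass at -0.20 (SE 0.056). Pcna-ps2, 99.2% identical over 781 bases, held 21% as many counts as Pcna, so reads could be split between them.

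The genes for RPA, which covers single-stranded DNA, were at -0.11 (Rpa1), -0.19 (Rpa2) and -0.16 (Rpa3), and the last was at 0.0033 with the offsets. Lig1, the ligase that seals lagging strand fragments, was at -0.21 and passed with the offsets (edgeR adjusted p = 0.0312). Fen1, the nuclease that trims those fragments, had the lowest level per length of the 52, 0.976 CPM per kb. Exons of an antisense gene on the opposite strand cover 78.8% of the Fen1 exon bases, and the strand setting of the counting is not given, so its level is uncertain.

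The 5 genes of nucleotide supply in LG held 98.2%, 87.9%, 90.1% and 82.7% of the HG sum in pairs 1 to 4. None of the 5 passed in the blocked fit, while the offsets brought Tk1, the thymidine kinase of S phase, past the threshold (edgeR adjusted p = 0.0202). The 2 subunits of ribonucleotide reductase, which makes deoxyribonucleotides, both had high levels. Rrm2, the subunit made mainly in S phase, was at 210, 188, 146 and 150 CPM in LG libraries 1 to 4, against 226, 231, 182 and 177 CPM in HG, lower in 4 of 4 pairs. Rrm1, which persists through the cycle, was at 383, 332, 322 and 283 CPM in LG, against 373, 358, 339 and 344 CPM in HG. LG 1 was its highest library. Rrm2 was at -0.24 (SE 0.059) and Rrm1 at -0.11 (SE 0.066), and neither passed. Tyms, which makes thymidylate, and Dut, which removes dUTP, were at -0.20 and -0.13.

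The 4 genes that act on new chromatin were each lower in LG in 4 of 4 pairs, with log2 fold changes in a narrow range of -0.27 to -0.23 with the block. None passed there, and 3 passed with the offsets: Chaf1a, Chaf1b and Uhrf1. Chaf1a, the large subunit of the histone chaperone CAF-1, was at 49.4, 46.1, 36.4 and 37.7 CPM in LG libraries 1 to 4, against 61.2, 53.5, 40.6 and 50.4 CPM in HG. A gene on the opposite strand shares 52.5% of its exon bases. Uhrf1, which brings the maintenance DNA methyltransferase to newly copied DNA, was at 131, 126, 111 and 114 CPM in LG, against 144, 150, 128 and 142 CPM in HG. LG 1 alone was above the lowest HG library, and the value was -0.23 (SE 0.056). Slbp, which binds the end of replication-dependent histone mRNA, was at -0.25.

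Within complexes, the members with the lowest and the highest log2 fold change with the block were set side by side. This is a description, since the choice fixes the direction. Subunits listed among the other replication genes were left out. Pold4 of polymerase δ was 1 of those, and its 0.35 with the block was above the -0.023 of Pold2. The log2 ratio of Mcm3 to Mcm7 differed between LG and HG by -0.22, -0.23, -0.25 and -0.21 in pairs 1 to 4, and that of Gins3 to Gins4 by -0.37, -0.47, -0.39 and -0.27. The ratio of Rfc1 to Rfc2 differed by -0.38, -0.34, -0.34 and -0.16, and that of Pola1 to Pola2 by -0.63, -0.17, -0.32 and -0.25. The ratio of Pold3 to Pold2 also differed by a negative value in all 4 pairs. In the other 5 of the 10 complexes the pair values had both signs: Pole to Pole2, Rpa2 to Rpa1, Rrm2 to Rrm1, Chaf1a to Chaf1b, and Timeless to Tipin. In the fit with offsets the values of these subunits were -0.36 and -0.11 for Mcm3 and Mcm7, -0.42 and -0.021 for Gins3 and Gins4, -0.32 and -0.096 for Rfc1 and Rfc2, and -0.37 and -0.18 for Pola1 and Pola2.

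**Figure D5:**
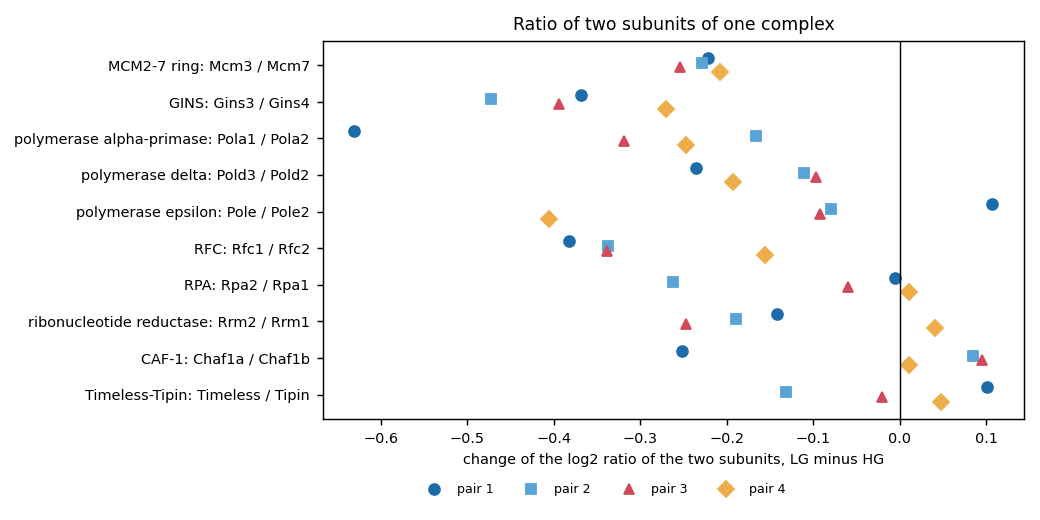
Change of the log2 ratio of 2 subunits of the same complex, LG minus HG, with 1 point per pair. The subunits are those with the lowest and highest log2 fold change with the block among the members in each complex. The 4 points of Mcm3 over Mcm7 lie between -0.25 and -0.21, and those of Chaf1a over Chaf1b fall on both sides of 0.

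Base composition moved with the fold changes across all genes. The rank correlation of log2 fold change with GC content was 0.363 over 18424 tested genes with the block and 0.006 with the offsets, while over the 52 members it was 0.154 and -0.236. Genes share libraries and are not independent. The members had a median GC content of 49.5%, against 50.1% for all tested genes, and their median log2 fold change was -0.24 with the offsets and the block.

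Other genes of DNA replication, 63 that are not among the 52, were listed by function. All 63 were tested, and 51 had a log2 fold change below 0 with the block (49.6% of tested genes), with a median of -0.12. In that fit 3 fell (0.307% of tested genes) and 0 rose (0.111%), and with the offsets added 10 fell (1.05%) and 0 rose (0.254%). The 3 were Topbp1 (-0.30), which activates ATR and helps fire origins, Atad5 (-0.49), which unloads PCNA, and Exo1 (-0.39), a nuclease of mismatch repair and resection (edgeR with block, adjusted p = 0.0476, 0.0418 and 0.0418). Atad5 was at 28.4, 30.5, 20.9 and 22.1 CPM in LG libraries 1 to 4, against 48.8, 38.6, 30.2 and 27.3 CPM in HG libraries 1 to 4. As with Clspn and Pola1, HG 1 was its highest library.

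The genes that joined these 3 with the offsets were Ccne2, Ticrr, Shmt1, Chek1, Wee1, Nasp and Dnmt1. Ccne2, a cyclin of the passage from G1 to S phase, had the lowest log2 fold change of the other licensing and firing genes in the paired fit, -0.43 (SE 0.079), just outside the threshold there (edgeR adjusted p = 0.0508). Nasp, a histone chaperone, was at 141, 153, 112 and 126 CPM in LG libraries 1 to 4, against 259, 194, 148 and 155 CPM in HG, and at -0.48 (SE 0.089, edgeR with block, adjusted p = 0.0520). LG 2 was above HG 3, and the pair 1 libraries were the farthest apart. Chek1, the kinase that Claspin helps to activate, was at -0.46 (SE 0.12), and its brake on Cdk activity is shared by Wee1, at -0.32 (SE 0.067).

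The highest values lay on the other side of 0 and none passed with or without the offsets. Pold4, the small subunit of polymerase δ, was at 5.93, 6.36, 9.14 and 7.20 CPM in LG libraries 1 to 4, against 4.40, 4.67, 7.32 and 6.14 CPM in HG, higher in 4 of 4 pairs at 0.35 (SE 0.097, edgeR with block, adjusted p = 0.153). Tk2, the mitochondrial thymidine kinase, was higher in LG in 4 of 4 pairs, at 0.14 (SE 0.067). Ddb1, which works with Dtl in the ubiquitin ligase, was at 0.13 (SE 0.076), Orc5 at 0.095 (SE 0.076) and the histone binding protein gene Rbbp4 at 0.069 (SE 0.068).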

How the data were processed

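RNA was sequenced as 8 mRNA libraries from 100 ng RNA with 150 bp paired reads, per the labels' protocols. The deposited values are whole-number counts per Ensembl gene ID, made by the authors. STAR, featureCounts, CASAVA 1.8.2, DESeq2 and mm10 appear in the submitters' processing notes; the sources used here give neither annotation release nor strand setting. Libraries held 50864130 to 65733928 counts, and no member had fewer than 93 in any library.

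Counts were tested in R 4.3.3 with edgeR 4.0.16 (filterByExpr, TMM, quasi-likelihood test, Benjamini-Hochberg adjustment over 18905 genes, threshold 0.05), without a block. Alternatives were the replicate number as a block, offsets per library for GC content and length (mgcv 1.9.3, GC known for 97.5% of tested genes), DESeq2 1.42.0, limma-voom (limma 3.58.1), other scaling, filters, preparations and left-out libraries. Samples were paired by replicate number. Same-numbered libraries correlated at 0.448 to 0.625 in their deviations from the group means (at most 0.419 for other numbers), and share a code in the descriptions. For numbers 1 and 2 that code is the same, so it cannot tell which LG library belongs with which HG library. Numbers 1 and 2 share 1 code, so libraries may not be independent cultures. Without a block, p-values measure the spread between libraries of a group. With a block, they measure the spread that is left after differences between the blocks are removed. CPM are TMM-normalised; pair differences use a prior count of 2; SE is the absolute log2 fold change over the square root of F. Levels per length use GENCODE M21 exon lengths. On simulated counts with the pairing built in, for 18905 genes in LG against HG, edgeR without the block recovered 0% of 1.2-fold and 22% of 1.4-fold changes with 0 false calls, and with the block 26% and 94% with 11 false calls.

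The members and lists were chosen with earlier results of these data known. Values per library are given for members that passed with or without the block and, in each step, for the member with the largest and the smallest absolute log2 fold change with the block and the one with the highest level per length. Of the other replication genes, those that passed with the block or with block and offsets, and the highest and lowest of each list, are named, except 1 that is not reported here.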

Additional observations from a re-analysis of the deposited data

Results flagged for a closer look

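In the 108 groups of 4 libraries examined (each of the 52 members, their sum and the total count, in LG and in HG), 2 held a library that stood apart from the other 3, and chance gives about 1 in 20 such groups, or 5.4. Pold2, a subunit of polymerase δ, was highest in HG replicate 2, at 5.53 log2 CPM, where the other HG libraries lay between 5.39 and 5.41. Rfc5, a small subunit of the clamp loader, was highest in HG replicate 4, at 5.65 log2 CPM, where the others lay between 5.59 and 5.60. Neither gene passed the test in the fit with or without the block.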

How the results depend on the processing

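Calls depended on the pairing. Without a block 0 of 18905 genes passed; with the replicate block it was 79, with block and offsets 246, with the preparation as block 1, with sums per preparation 17, with DESeq2 4, with DESeq2 and the block 474, and at a threshold of 0.01 with the block, chosen after seeing the data, 5. Members called numbered 5 with the replicate block, 0 with the preparation as block, 20 with block and offsets, 1 with sums per preparation and 18 with DESeq2 and the block, and other replication genes 3, 10 and 12 with the block, with block and offsets and with DESeq2 and the block. Leaving out 1 library or 1 pair gave 0 to 152 genes (40 with the block and without number 3), 0 to 6 members (2 without number 3), 0 to 7 other replication genes, and a median of the members between -0.29 and -0.16. The cause of these differences was not tested.

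Of 1196 member values under 23 other settings, 33 reversed, in 7 members. Gins4 was at 0.0013 without a block, -0.0030 with it, -0.021 with block and offsets, -0.019 with offsets, -0.00060 with the preparation as block and with the stricter filter, -0.026 with sums and -0.0084 with limma-voom. Pole2 was at 0.033 with block and offsets, 0.027 with offsets and 0.018 with sums, and Rpa3 at 0.0033 and 0.0066 with block and offsets and with offsets. With libraries or pairs left out, values ran from -0.070 to 0.047 for Gins4 without a block and -0.050 to 0.069 with it (-0.022 without number 3), -0.11 to 0.079 for Pole2 (0.017 with the block and without number 2, 0.024 at most), -0.073 to 0.012 for Pold2 without a block and -0.078 to 0.012 with it, -0.11 to 0.020 for Rfc2 without a block and at most 0.024 with it, -0.19 to 0.0056 for Rfc3 and -0.23 to 0.021 for Rpa1.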
